A study of Mus musculus with 3 samples.

Results

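Ccl2 Ccl7 immediate early macrophages of the mouse heart are cells that carried transcripts of Ccl2 or Ccl7, which attract monocytes, together with transcripts of 1 or more of the early-response transcription factors Egr1, Fosb and Atf3. The rule used the sum of each set, so a cell need not hold every gene. They were found in droplet-based single-cell RNA sequencing of macrophages sorted from hearts of a high fat diet (HFD) and a control diet (CD) group, with 1 library for each diet. All mice were labelled wild type and 32 to 34 weeks old. Hearts had been flushed, cut up and digested with collagenase II for 30 minutes, and live singlets that stained for CD45 (leukocytes) together with CD11b and F4/80 (macrophages) had been gated. No allele or drug is listed for either group, and the sources used here do not give the composition and length of the diets or the number of hearts in a library. With 1 library a diet there is no replicate, so no difference between HFD and CD was tested, and every interval below is a 95% interval for counting error alone.

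A cell was kept with at least 1000 unique molecular identifiers (UMIs, each standing for 1 captured transcript), at least 200 genes and at most 10% of UMIs from mitochondrial genes. The C1q gate then asked for at least 0.3% of UMIs from C1qa, C1qb and C1qc, which encode the chains of complement C1q and mark tissue macrophages. Among gated cells, at least 3 UMIs of Ccl2 and Ccl7 summed (the chemokine sum) and at least 3 UMIs of Egr1, Fosb and Atf3 summed (the early sum) were required. These dual-positive cells numbered 503 of 4295 C1q-gated cells, which were themselves drawn from 5396 cells past the quality filters. The HFD library gave 39 of 2002 C1q-gated cells and the CD library 464 of 2293. The cells were thus chosen by the measured UMIs of Ccl2, Ccl7, Egr1, Fosb, Atf3 and the C1q genes, whose levels are given only as a description.

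Ccl2 and Ccl7 are secreted ligands of the receptor Ccr2, and macrophages make them to draw monocytes from the blood into tissue. Egr1, Fosb and Atf3 belong to the immediate early genes, which are transcribed within minutes of a stimulus from factors already present in the cell, and which then act on slower target genes. Enzymatic digestion of a tissue is itself a known stimulus of immediate early genes. Both libraries carry the same labelled digestion time.

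The libraries were of similar size, with 16630481 UMIs in HFD and 17464149 in CD. Cells differed in depth. Dual-positive cells had a median of 5216 UMIs in HFD and 5856 in CD, against 2910 UMIs in the other C1q-gated cells of HFD and 4021 in those of CD. Their mitochondrial share had a median of 4.18% in HFD and 3.63% in CD, close to the 4.37% and 3.62% of the other cells. Of the cell barcodes past the quality filters, 15 occurred in both libraries, and none of these was dual-positive in both. Summed over the dual-positive cells there were 203008 UMIs in HFD and 3412389 in CD, so that 3 UMIs, the limit that a count of 0 allows, stand for 14.8 CPM in HFD and for 0.879 CPM in CD, where CPM is a gene's UMIs per 1e6 UMIs of the same cells.

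Dual-positive cells made up 1.95% of C1q-gated cells in HFD (1.39 to 2.65) and 20.2% in CD (18.6 to 21.9). The 2 arms of the rule were not equally scarce in HFD. The chemokine sum was met by 11.7% of C1q-gated cells in HFD (10.4 to 13.2) and 31.5% in CD (29.6 to 33.4). The early sum was met by 6.09% in HFD (5.09 to 7.23) and 42.3% in CD (40.3 to 44.4). As a share of all C1q-gated cells, those with the chemokine sum alone were nearly as frequent in HFD (9.79%, 8.52 to 11.2) as in CD (11.3%, 9.99 to 12.6), and the intervals overlapped. This share leaves out cells with the early sum, which were far more frequent in CD. Among cells below the early threshold, the chemokine sum was met by 10.4% in HFD (9.08 to 11.9) and 19.5% in CD (17.4 to 21.8). Cells with the early sum alone made up 4.15% in HFD (3.32 to 5.11) and 22.1% in CD (20.4 to 23.9).

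**Figure D1:**
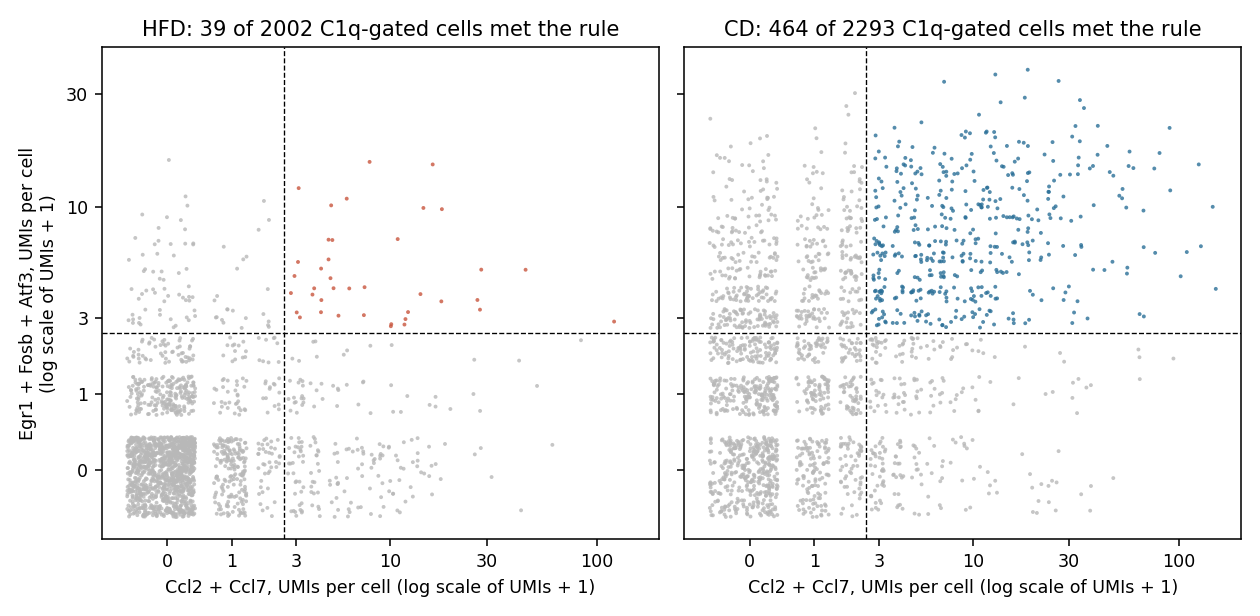
Each point is a C1q-gated cell of the HFD library (left) or the CD library (right), placed by its UMIs of Ccl2 and Ccl7 (horizontal) and of Egr1, Fosb and Atf3 (vertical) on a log scale of UMIs plus 1, with points spread at random around their whole numbers so that they can be seen. Dashed lines mark the thresholds, and the coloured cells beyond both are the 39 dual-positive cells of HFD and the 464 of CD.

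Among cells counted at their full depth, the early sum was met more often where the chemokine sum was met. In HFD the early sum was met by 16.6% of cells that met the chemokine sum (12.1 to 22.0) and by 4.70% of those that did not (3.76 to 5.79). In CD the corresponding shares were 64.3% (60.6 to 67.8) and 32.3% (30.0 to 34.6). A deeper cell meets both sums more readily, so cells were also thinned to 1000 UMIs each and asked for a single UMI of each sum. After thinning, an early UMI was found in 17.5% of HFD cells with a chemokine UMI (13.3 to 22.4) and in 10.1% of HFD cells without one (8.67 to 11.6). In CD it was found in 50.9% of cells with a chemokine UMI (47.3 to 54.6) and in 37.4% of cells without (34.98 to 39.9). Thinned to 2000 UMIs, the shares were 23.9% (19.4 to 29.0) with and 19.4% (17.1 to 21.8) without a chemokine UMI in HFD, and 63.8% (60.6 to 66.9) with and 51.9% (48.9 to 54.9) without in CD. The intervals lay apart in both libraries at 1000 UMIs, and at 2000 UMIs they overlapped in HFD and lay apart in CD.

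At equal depth the libraries also stayed apart. A UMI of both sums was found in 2.55% of thinned HFD cells (1.90 to 3.34) and 16.5% of thinned CD cells (14.99 to 18.1). In every range of UMIs per cell the dual-positive share was lower in HFD than in CD. Between 1000 and 2000 UMIs it was 0.742% in HFD and 4.76% in CD, between 2000 and 4000 UMIs 0.432% in HFD and 10.9% in CD, and between 4000 and 8000 UMIs 5.75% in HFD and 22.3% in CD. From 8000 UMIs on it was 6% in HFD (3 of 50 cells, 1.25 to 16.5) and 52.9% in CD (145 of 274 cells, 46.8 to 59.0). Applied to thinned cells, the full rule with its 3 UMIs a sum left 4 HFD cells (0.1998%) and 51 CD cells (2.22%).

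**Figure D2:**
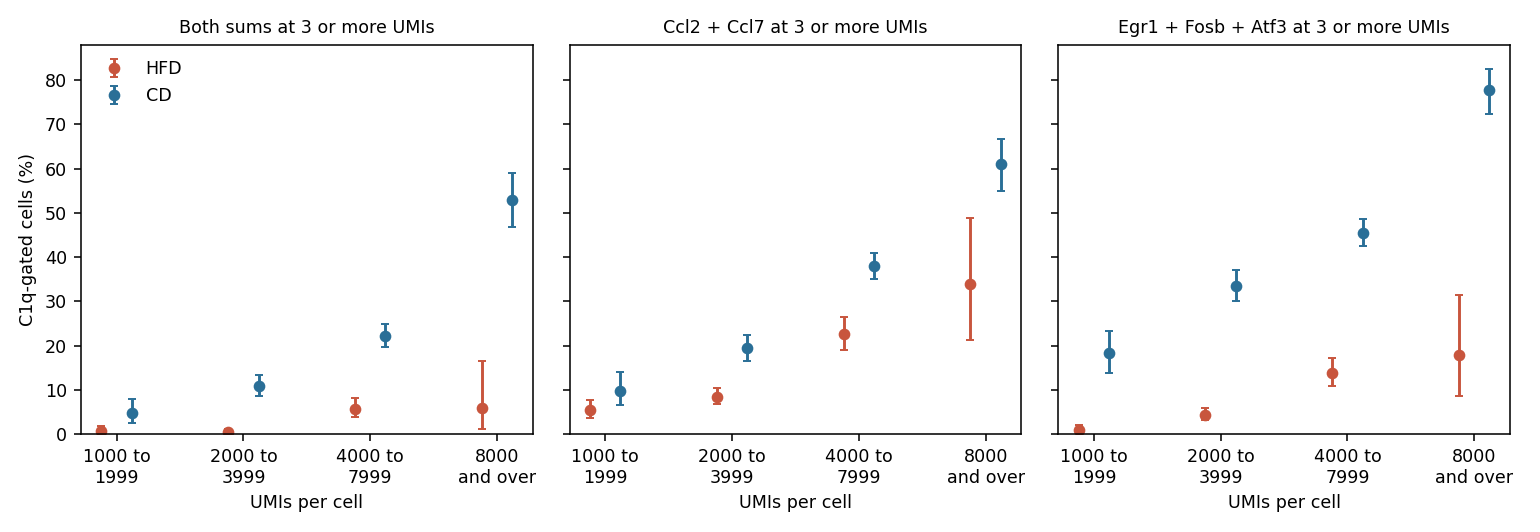
Share of C1q-gated cells (vertical, percent, with exact 95% binomial intervals) that met both sums, the chemokine sum and the early sum, in 4 ranges of UMIs per cell (horizontal), for HFD (red) and CD (blue). The HFD points lie below the CD points in all ranges, with overlapping intervals for the chemokine sum between 1000 and 2000 UMIs.

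Transcripts that float free of cells can add UMIs to any droplet, so the sums were also counted in cells gated on endothelial markers, which lack C1q. Among these, 0 of 516 HFD cells were dual-positive, which allows a share of up to 0.712%, and 1 of 201 CD cells was (0.498%). A chemokine UMI after thinning to 1000 was found in 14.5% of C1q-gated cells and 1.55% of endothelial-gated cells in HFD, and in 32.4% of C1q-gated and 3.48% of endothelial-gated cells in CD. An early UMI was found in 11.1% of C1q-gated cells and 6.40% of endothelial-gated cells in HFD, and in 41.8% of C1q-gated and 16.4% of endothelial-gated cells in CD. Endothelial cells can transcribe immediate early genes themselves. Their median depth before thinning was 1839.5 UMIs in HFD and 2685 in CD. Barcodes with fewer than 100 UMIs, which hold mostly free RNA, had 73.1 CPM of Ccl2 in HFD and 219 in CD. In CD that is close to the Ccl2 level of the other C1q-gated cells given below, and in HFD it is lower than theirs.

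Cells close to the thresholds were numerous. Among cells with the early sum, 6 in HFD and 62 in CD stood at exactly 3 chemokine UMIs, just inside, and 8 in HFD and 103 in CD at exactly 2, just outside. Among cells with the chemokine sum, 12 in HFD and 57 in CD stood at exactly 3 early UMIs, and 12 in HFD and 62 in CD at exactly 2. The chemokine sum of dual-positive cells ran from 3 to 121 UMIs in HFD, with a median of 6, and from 3 to 149 in CD, with a median of 9. Their early sum ran from 3 to 16 UMIs in HFD, with a median of 4, and from 3 to 38 in CD, with a median of 7.

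The rule sets how many UMIs of its own genes these cells hold. Dual-positive cells carried 17.0% of the Ccl2 UMIs and 22.1% of the Ccl7 UMIs of all C1q-gated cells in HFD, and 69.8% and 68.1% in CD. Ccl2 and Ccl7 lie side by side on mouse chromosome 11 (GRCm38), Ccl2 at chr11:82035571-82037453 and Ccl7 at chr11:82045712-82047525, both on the plus strand and 8258 bases apart. Ccl2 was at 1025 CPM in dual-positive cells of HFD (890 to 1174) and 1167 in those of CD (1131 to 1203), against 159 and 216 CPM in other C1q-gated cells. Ccl7 was at 1463 CPM in HFD (297 UMIs in 31 of 39 cells) and 851 in CD (2904 UMIs in 318 of 464 cells), against 163 and 171 CPM. Egr1 was at 458 CPM in dual-positive cells of HFD and 457 in those of CD, against 55.0 and 210 CPM in the others. Fosb was at 448 CPM in HFD and 370 in CD, against 36.7 and 161 CPM. Atf3 was at 167 CPM in HFD and 383 in CD, against 47.0 and 144 CPM.

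Across all genes, the HFD comparison rests on 39 cells and is far noisier. A gene was called when its ratio of CPM was at least 1.5-fold in either direction, with at least 100 UMIs in both sets of cells together. In HFD, 650 of 5774 genes were called higher in dual-positive cells (11.3%) and 1031 lower (17.9%, of which 46 had 0 UMIs). Asking also that the counting interval leave out 1, a condition added after the data had been seen, left 162 higher (2.81%) and 117 lower (2.03%). In CD, 187 of 7405 genes were called higher (2.53%) and 139 lower (1.88%), and with the interval condition 185 (2.5%) and 127 (1.72%). The median log2 ratio over all genes was -0.02 in HFD and -0.01 in CD. Among 5762 genes that could be called in both libraries, 42 were higher in both, 37 lower in both, and 22 called in opposite directions. The UMI counts of dual-positive cells are also larger, and matching the other CD cells to the same UMIs per cell gave 300 higher and 300 lower genes in CD.

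Markers of macrophages that the rule did not use were present in these cells. Csf1r, the receptor for the macrophage growth factor, was detected in 36 of 39 dual-positive cells of HFD and 449 of 464 of CD, at 1015 CPM in HFD and 775 CPM in CD. Other C1q-gated cells had 929 CPM in HFD and 930 CPM in CD. Of 14 genes of macrophage identity, none was at least 1.5-fold higher in dual-positive than in other C1q-gated cells in either library. A single one, Mertk, was at least 1.5-fold lower, with 4 UMIs in HFD. Of 10 resident macrophage genes, none was higher, and Vsig4 alone was lower, at 49.3 CPM in dual-positive cells of HFD and 86.1 CPM in others. All genes together had 11.3% higher and 17.9% lower in HFD, and 2.53% and 1.88% in CD. Lyve1, a receptor of resident vessel-associated macrophages, was at 374 CPM in dual-positive cells of HFD and 372 CPM in those of CD, against 313 and 367 CPM in the others. With 5 UMIs asked of each sum, Lyve1 was past 1.5-fold lower in HFD, at a log2 ratio of -0.78 in place of 0.26. Klf4, a zinc finger factor named with this group but not used to gate it, was at 271 CPM in HFD (204 to 353) and 433 CPM in CD (411 to 456), against 102 and 202 CPM. That is 2.65-fold higher in dual-positive than in other cells of HFD (1.97 to 3.49) and 2.14-fold higher in CD (1.99 to 2.30). With 5 UMIs asked of each sum the HFD log2 ratio was 2.02 in place of 1.40.

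The AP-1 subunits, which pair to form the dimeric factor that Fosb also joins, were high in dual-positive cells. Of 7 measured subunits, 6 were at least 1.5-fold higher and 1 (Batf, 2 UMIs) was lower in HFD, with a median log2 ratio of 1.07. In CD, 4 of 7 were higher and none lower, with a median of 0.73. Among all genes, 11.3% were higher and 17.9% lower in HFD, and 2.53% and 1.88% in CD. Fos was at 2463 CPM in dual-positive cells of HFD (2252 to 2689) and 2636 CPM in those of CD (2582 to 2691), against 406 and 1260 CPM in other C1q-gated cells. The ratio was 6.07-fold in HFD (5.51 to 6.69) and 2.09-fold in CD (2.03 to 2.15). A Fos UMI was found in 36 of 39 cells in HFD and 462 of 464 in CD. Junb was 4.74-fold higher in HFD (1640 against 346 CPM) and 1.94-fold higher in CD (1892 against 975 CPM). Jun was 5.05-fold higher in HFD (1901 against 377 CPM) and 1.70-fold higher in CD (1410 against 831 CPM). The larger folds in HFD stood beside lower levels in the other HFD cells, while the dual-positive cells of both libraries had like levels.

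Of the other immediate early factors, 10 of 15 measured genes were higher and 1 lower in HFD (median log2 ratio 1.10), and 11 of 21 were higher and none lower in CD (median 0.67). The shares over all genes were 11.3% higher and 17.9% lower in HFD, and 2.53% and 1.88% in CD. Ier2, an early-response nuclear protein, was 5.18-fold higher in HFD (1113 against 215 CPM) and 1.81-fold higher in CD (747 against 414 CPM). Ier3 was 5.05-fold higher in HFD (271 against 53.6 CPM) and 2.28-fold higher in CD (493 against 217 CPM). With 5 UMIs asked of each sum, the Ier3 log2 ratio in HFD was 0.99 in place of 2.34. Zfp36, which binds and destabilises cytokine messenger RNA, was 4.33-fold higher in HFD (571 against 132 CPM) and 1.86-fold higher in CD (495 against 266 CPM). Egr2, a relative of Egr1, was at 49.3 CPM in dual-positive cells of HFD (10 UMIs in 5 cells) and 50.7 CPM in those of CD (173 UMIs in 116 cells), against 6.25 and 16.0 CPM. Nr4a1, an orphan nuclear receptor of the early response, was 2.59-fold higher in CD (79.7 against 30.8 CPM, 272 UMIs in 150 cells). In HFD it had 1 UMI in 39 dual-positive cells.

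Of the genes of mitogen-activated protein kinase and stress feedback, 5 of 9 measured were higher and none lower in HFD (median log2 ratio 1.13), and 9 of 13 higher and none lower in CD (median 0.80). Dusp1, a phosphatase that switches these kinases off, was 4.17-fold higher in HFD (1621 against 389 CPM) and 1.78-fold higher in CD (1661 against 932 CPM). Socs3, which restrains cytokine receptors that signal through Stat3, was at 542 CPM in dual-positive cells of HFD (445 to 653) and 461 in those of CD (438 to 484), against 79.2 and 214 CPM. The ratio was 6.84-fold in HFD (5.51 to 8.42) and 2.15-fold in CD (2.01 to 2.31). Most NF-kB and feedback genes were not called. In HFD 4 of 14 were higher and 1 lower (median log2 ratio 0.14), where 11.3% of all genes were higher and 17.9% lower and the median was -0.02. In CD 7 of 21 were higher and 1 lower (median 0.35), where 2.53% of all genes were higher and 1.88% lower. Nfkbiz, an atypical inhibitor of the NF-kB family, was 4.48-fold higher in HFD (163 against 36.3 CPM) and 2.45-fold higher in CD (260 against 106 CPM). Nfkbia, the inhibitor that holds NF-kB in the cytoplasm, was 1.81-fold higher in HFD (325 against 180 CPM) and 2.19-fold higher in CD (964 against 441 CPM), and in HFD it was short of 1.5-fold, at a log2 ratio of 0.45 in place of 0.86, with 5 UMIs asked of each sum.

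Upstream sequence of 4 genes is given because Fosb and Atf3 are gating factors, Klf4 is a marker of the group, and Cxcl2 led the genes higher in both libraries. Of 16 genes looked up, 10 had a RefSeq promoter entry (GRCm38.p6). The 250 bases before an annotated start are printed on the gene's strand, from chr7:19310046-19310295 (minus) for Fosb, chr1:191183334-191183583 (minus) for Atf3, chr4:55532476-55532725 (minus) for Klf4 and chr5:90903649-90903898 (plus) for Cxcl2. The Atf3 window lies inside the annotated gene, chr1:191170296-191218039. It thus precedes an internal start, and the sequence before the outermost Atf3 start was not searched. Capitals mark the core TGACG of the cyclic AMP response element, read on either strand, in the first 3 sequences, and a match to the NF-kB motif, GGGA then any base then TTTCC on either strand, in Cxcl2.
Fosb: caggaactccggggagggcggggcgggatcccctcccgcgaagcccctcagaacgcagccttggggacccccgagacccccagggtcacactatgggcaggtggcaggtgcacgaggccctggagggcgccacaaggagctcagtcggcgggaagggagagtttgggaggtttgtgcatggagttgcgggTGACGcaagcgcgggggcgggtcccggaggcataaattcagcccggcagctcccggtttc
Atf3: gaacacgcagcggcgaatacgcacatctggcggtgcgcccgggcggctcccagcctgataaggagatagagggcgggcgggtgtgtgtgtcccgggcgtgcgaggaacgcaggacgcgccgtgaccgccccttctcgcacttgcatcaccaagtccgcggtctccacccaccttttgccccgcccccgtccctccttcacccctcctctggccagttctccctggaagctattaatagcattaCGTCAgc
Klf4: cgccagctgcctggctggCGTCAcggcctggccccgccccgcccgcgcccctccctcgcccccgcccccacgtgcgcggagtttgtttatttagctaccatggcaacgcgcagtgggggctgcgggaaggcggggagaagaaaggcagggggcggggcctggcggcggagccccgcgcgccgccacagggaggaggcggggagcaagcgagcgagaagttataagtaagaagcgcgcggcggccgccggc
Cxcl2: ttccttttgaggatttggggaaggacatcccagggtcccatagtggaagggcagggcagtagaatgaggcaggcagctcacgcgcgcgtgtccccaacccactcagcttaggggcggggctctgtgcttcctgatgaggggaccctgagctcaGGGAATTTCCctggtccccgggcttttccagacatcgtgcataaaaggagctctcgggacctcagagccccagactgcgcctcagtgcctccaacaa
The core lay 60 to 56 bases before the start in Fosb, 7 to 3 in Atf3 and 232 to 228 in Klf4, and 17.8% of 32851 promoter entries hold it on either strand. The NF-kB match lay 97 to 88 bases before the Cxcl2 start, and 0.356% of the entries hold one. None of the 4 sequences held the AP-1 motif TGANTCA (6.75% of entries), the full element TGACGTCA, which contains the core (1.55%), or a CArG box (1.47%). Over the 10 genes with an entry, the core was found in 5 (Fosb, Atf3, Klf4, Fos and Junb), the AP-1 motif in Mt2 and the NF-kB motif in Cxcl2, and Ier3, Socs3 and Sbno2 held none of the motifs searched. These are matches of letters in a short window and were not tied to binding.

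The gene with the largest shared ratio was Cxcl2, a chemokine that attracts neutrophils. It was at 719 CPM in dual-positive cells of HFD (607 to 846) and 2377 CPM in those of CD (2325 to 2429), against 52.4 and 721 CPM in other C1q-gated cells. The ratio was 13.7-fold in HFD (11.2 to 16.7) and 3.30-fold in CD (3.19 to 3.41). The HFD value rests on few cells, since Cxcl2 was found in 13 of 39 and a single cell held 72 of the 146 UMIs. At a mitochondrial limit of 5% the HFD log2 ratio was 2.10 in place of 3.78, and without the single cell, an alternative added after the data had been seen, it was 2.83. In CD it was found in 369 of 464 cells. After thinning to 1000 UMIs a Cxcl2 UMI was found in 20.5% of dual-positive cells (9.30 to 36.5), 2.50% of other C1q-gated cells and 0.388% of endothelial-gated cells in HFD. In CD the shares were 57.8% (53.1 to 62.3), 24.4% and 2.49%. Dual-positive cells held 30.4% of the Cxcl2 UMIs of C1q-gated cells in HFD and 58.5% in CD.

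The CC chemokines beyond the gate were less uniform, with 2 of 6 measured genes higher in HFD and 2 of 8 in CD and none lower. Over all genes, 11.3% were higher and 17.9% lower in HFD, and 2.53% and 1.88% in CD. Ccl8, a monocyte attractant, was at 828 CPM in dual-positive cells of HFD (168 UMIs, 70 of them in 1 of 15 cells) and 839 CPM in those of CD, against 670 and 841 CPM. Its HFD log2 ratio of 0.31 was 0.82 with cells weighted equally and -2.19 without cells carrying markers of other cell types, and its HFD over CD log2 ratio was -2.58 in place of -0.02 without those cells. Ccl4, an inflammatory chemokine, was 5.45-fold higher in HFD (222 against 40.6 CPM, 45 UMIs in 6 cells; log2 ratio 1.24 in place of 2.45 at a mitochondrial limit of 5%) and 2.73-fold higher in CD (496 against 182 CPM, 1693 UMIs in 215 cells). Ccl3, a close relative, was at 44.3 CPM in HFD (9 UMIs) and 268 CPM in CD, against 11.2 and 126 CPM, and was called 2.12-fold higher in CD. Ccl12, a mouse Ccr2 ligand encoded near Ccl2 and Ccl7, was 3.51-fold higher in HFD (1094 against 311 CPM, 222 UMIs in 22 cells) and at 498 against 364 CPM in CD, a ratio of 1.37 that was short of the 1.5-fold line. Ccl6, Ccl9 and Ccl24 lay between 1.00 and 1.14 times the other cells in both libraries. Among cytokines, 5 of 8 measured genes were higher in CD and none of 4 in HFD, where 1 was lower. Tnf, the inflammatory cytokine, was at 54.2 CPM in dual-positive cells of HFD (11 UMIs in 6 cells) and 68.3 CPM in those of CD (233 UMIs in 138 cells), against 4.38 and 26.9 CPM. Il6, a cytokine of the acute response, had 0 UMIs in dual-positive cells of HFD and 27 UMIs in 15 cells of CD. Il1b was 1.98-fold higher in CD (260 against 131 CPM) and at 78.8 against 74.9 CPM in HFD. Without cells carrying markers of other cell types, the Il1b log2 ratio in CD was 0.27 in place of 0.99. In HFD it was 0.07, but 1.09 with 5 UMIs asked of each sum and -1.08 without those cells, so no direction is given there.

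The remaining genes higher in both libraries under the naming rule were Mt2, Sbno2, Phlda1 and Gm26532. Mt2, a metallothionein that binds zinc, was 2.35-fold higher in HFD (133 against 56.6 CPM) and 2.10-fold higher in CD (185 against 88.3 CPM). Sbno2, a transcriptional corepressor downstream of interleukin 10, was 3.795-fold higher in HFD (113 against 29.9 CPM) and was also called higher in CD (107 against 53.5 CPM). Phlda1 was 2.15-fold higher in HFD (14 UMIs) and 1.93-fold higher in CD, and its CD log2 ratio was 0.32 in place of 0.95 against cells matched on UMIs. Of the heat shock genes, which respond to protein damage and also to tissue digestion, 3 of 10 were higher and 1 lower in HFD, against 11.3% and 17.9% of all genes, and with the interval condition 2 were higher and none lower. In CD 2 of 12 were higher and none lower, against 2.53% and 1.88% of all genes. Hspa1a, an inducible chaperone, was 2.61-fold higher in HFD (379 against 145 CPM) and 1.62-fold higher in CD (839 against 517 CPM).

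Setting the 4 combinations of the sums side by side showed which genes followed which sum. Fos was at 2463 CPM with both sums, 358 with the chemokine sum alone, 2277 with the early sum alone and 280 with neither in HFD. In CD the values were 2636, 773, 2420 and 662 CPM in the same order. Fos was thus nearly as high with the early sum alone as with both. Socs3 and Klf4 lay the same way, with Socs3 at 542, 66.8, 437 and 55.8 CPM in HFD and 461, 132, 407 and 115 CPM in CD. Ccl12 lay the other way, at 1094, 1294, 277 and 152 CPM in HFD and 498, 1140, 207 and 214 CPM in CD. Ccl12 was therefore higher with the chemokine sum alone than with both in CD. In HFD these levels lay closer together and are printed without intervals, so no direction is given there. Cells with the chemokine sum alone were also shallower, with a median of 3932.5 UMIs in HFD and 4757.5 in CD. Cells with both sums had a median of 5216 UMIs in HFD and 5856 in CD. The part of depth in the Ccl12 levels was not tested. Cxcl2 was highest with both sums in CD, at 2377, 469, 1524 and 280 CPM. In HFD it was at 719, 61.0, 325 and 31.5 CPM, and without the cell that held 72 of its UMIs the first value was 373 CPM (293 to 468), close to that with the early sum alone. Tnf was at 54.2 CPM with both sums (11 UMIs), 7.03 with the chemokine sum alone (6 UMIs) and 5.42 with the early sum alone (2 UMIs) in HFD, and 68.3, 30.4 and 44.1 CPM in CD. Ier3 was at 271, 90.3, 73.2 and 46.2 CPM in HFD and 493, 182, 363 and 132 CPM in CD. MHC class II was lower with the chemokine sum alone, where H2-Aa, an antigen-presenting chain, was at 6835 CPM in HFD and 4567 CPM in CD, than with neither sum, where it was at 11265 and 6764 CPM.

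**Figure D3:**
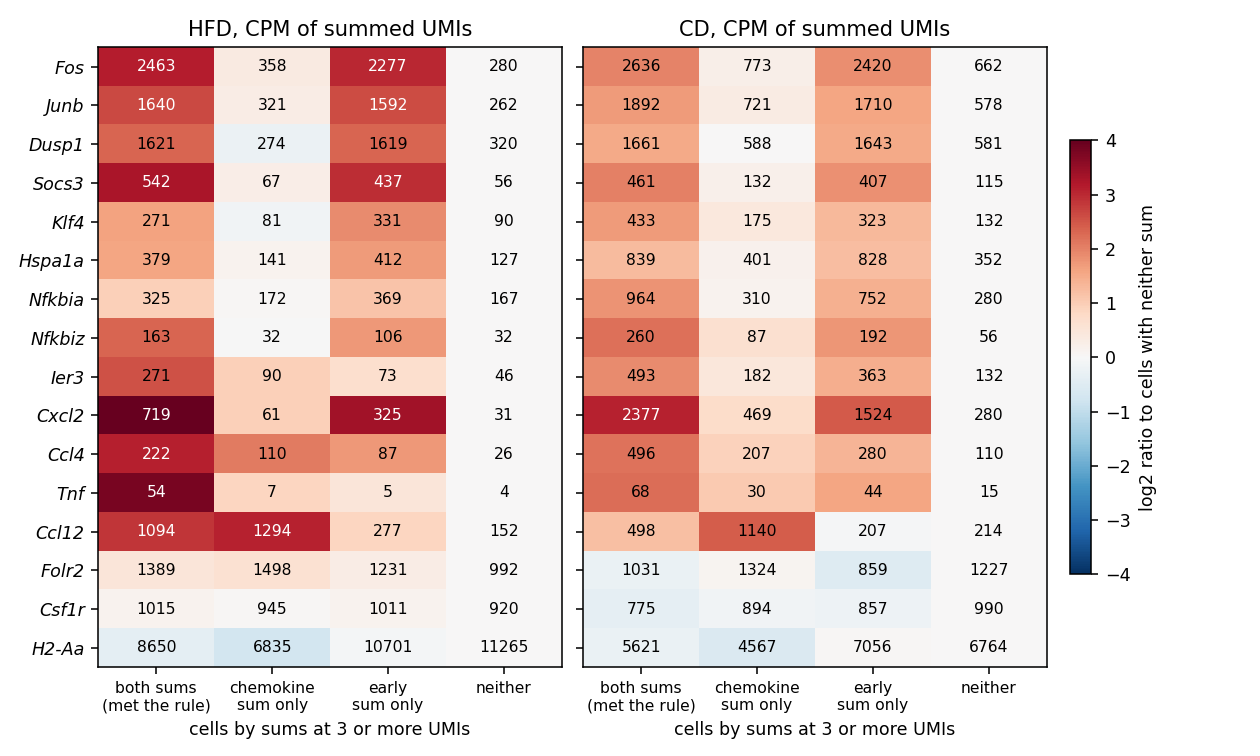
CPM of summed UMIs (numbers) of 16 genes in HFD (left) and CD (right) for cells with both sums at 3 or more UMIs, the chemokine sum only, the early sum only or neither, coloured by the log2 ratio to the cells with neither. Fos, Junb, Dusp1 and Socs3 are high with both sums and with the early sum only, Ccl12 with both sums and with the chemokine sum only, and Cxcl2 is highest with both. In HFD, without 1 cell, the Cxcl2 level with both sums is close to that with the early sum only.

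Genes lower in dual-positive cells of both libraries were sparse. Of the 8 named, Cd207, the lectin langerin, was at 10.3 CPM in dual-positive cells of CD (35 UMIs in 6 cells, 16 of them in 1 cell), against 72.0 CPM in the others, and had 1 UMI in HFD, where the others had 38.6 CPM. With 2 UMIs asked of each sum the CD log2 ratio of Cd207 was -1.18 in place of -2.81, and without cells carrying markers of other cell types it was -5.92. Tmem119 and Cxcl14 had 1 UMI each in dual-positive cells of HFD and were at 6.15 and 7.62 CPM in those of CD, against 15.8 and 18.8 CPM in other CD cells. Zmynd15 had 2 UMIs in HFD and stood at 7.33 against 18.3 CPM in CD, where the call was lost (log2 ratio -0.43 in place of -1.32) with 2 UMIs asked of each sum. The remaining 4, Gpihbp1, Cavin2, Dcn and Egfl7, are genes of endothelial cells or fibroblasts and had 1 to 4 UMIs in HFD. In CD the calls were lost for Egfl7 (log2 ratio -0.28 in place of -0.93) with cells weighted equally, for Gpihbp1 (-0.56 in place of -1.17) with 5 UMIs asked of each sum, and for Dcn under 5 alternatives (between -0.49 and 0.065 in place of -0.99). Of the MHC class II genes, none of 9 was higher and 1 was lower in HFD (median log2 ratio -0.29), and 1 of 10 was higher and none lower in CD (median -0.13). Over all genes, 11.3% were higher and 17.9% lower in HFD, and 2.53% and 1.88% in CD. The gene called in both was H2-DMb2, at 9.85 CPM in dual-positive cells of HFD (2 UMIs) and 36.6 CPM in those of CD, against 23.6 and 16.9 CPM. Cd74, the invariant chain, was at 26959.5 CPM in dual-positive cells of HFD and 18001 in those of CD, against 32935 and 21538 CPM.

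Each library was also clustered without the rule genes and without the chemokine, immediate early, feedback, NF-kB, cytokine and heat shock lists, and clusters are given by number and leading genes. Response genes outside those lists, such as Socs3 and Mt2, were not left out, so the clusters could still follow the response in part. Leaving out the listed genes works against a cluster of dual-positive cells, so their spread is only described. In HFD, dual-positive cells were spread over 10 of 12 clusters at no more than 8.33% of a cluster, and the largest contributions were 8 cells each from cluster 2 (led by Emp1, Lyve1 and Calml4) and cluster 4 (Gm31243, Gm26522 and Il13ra1) and 7 from cluster 6 (Cd209b, Cd55 and Cd209f). In CD they occurred in all 14 clusters, at 6.69% to 43.2%, and the largest contributions were 67 cells from cluster 4 (Pcolce, 2810403A07Rik and Ccdc134), 64 from cluster 9 (Igkc, Il1f9 and Ly6d) and 63 from cluster 3 (Colca2, Serpinb1a and Lyve1). Clusters also differed in depth, with a median of 6379 UMIs in CD cluster 9 and 3278.5 in CD cluster 1.

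After thinning to 1000 UMIs, a UMI of both sums was found in 7.74% of cells of CD cluster 7 (Cd209d, Apoc1 and Cd209f, 155 cells, 4.06 to 13.1) and 8.28% of CD cluster 1 (H2-M2, Cadm1 and Zmynd15, 314 cells, 5.48 to 11.9). At the other end it was found in 26.2% of CD cluster 5 (Ankrd1, Tnnt2 and Actc1, 195 cells, 20.1 to 32.9) and 23.6% of CD cluster 9 (148 cells, 17.1 to 31.3). Cluster 5 carried heart muscle transcripts at 1013 CPM summed, and cluster 9 neutrophil transcripts at 7434 CPM. The part of these transcripts in the shares was not tested. In HFD the thinned shares ran from 0.9501% in cluster 1 (Ccl22, Ccl17 and Tmem119, 421 cells) to 4.81% in cluster 6 (187 cells) among clusters of over 100 cells. In both libraries the cluster with Tmem119 and Cd207 among its leading genes had a low share, with 2 of 421 cells dual-positive in HFD and 21 of 314 in CD. The Cd209 clusters differed in rank, with a thinned chemokine UMI in 28.9% of HFD cluster 6 and 25.8% of CD cluster 7, and an early UMI in 12.3% and 26.5%.

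**Figure D4:**
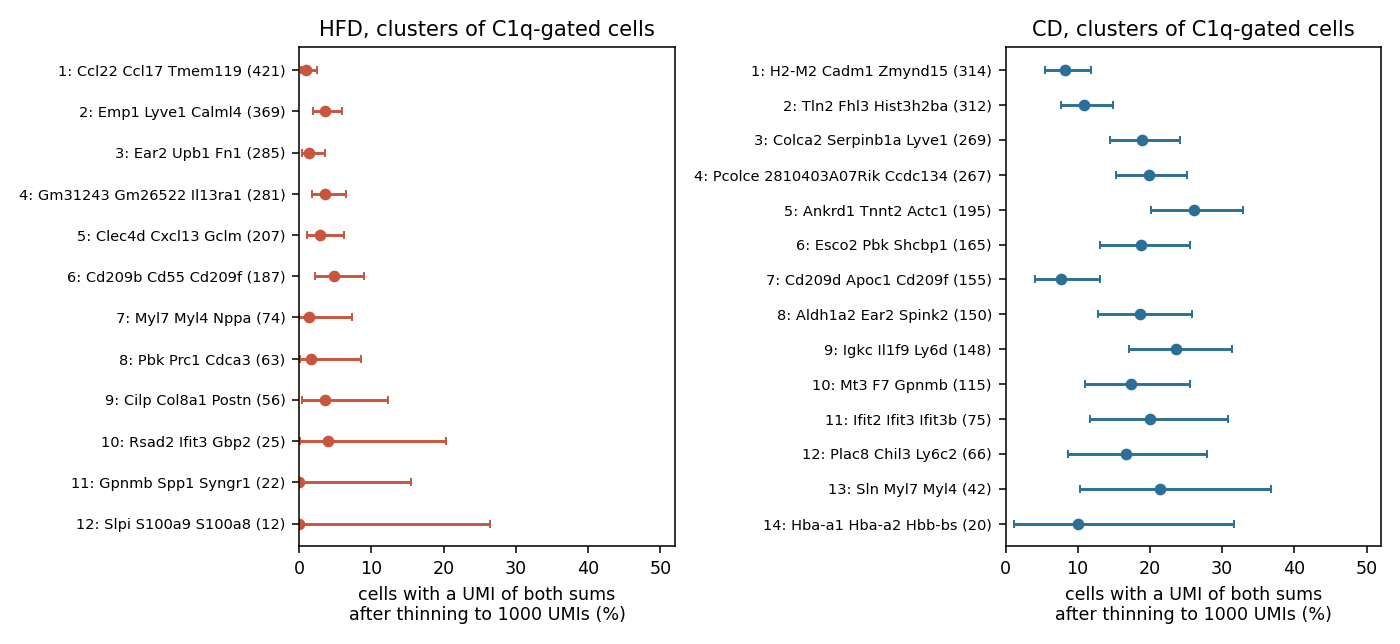
Share of cells with a UMI of both sums after thinning to 1000 UMIs (horizontal, percent, with exact 95% binomial intervals) in each cluster of C1q-gated cells, labelled by number, 3 leading genes and number of cells, for HFD (left) and CD (right). The HFD shares lie between 0 and 4.81% and the CD shares between 7.74% and 26.2%.

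HFD and CD were then compared within the dual-positive cells, where the rule had already set a minimum for both sums. Of 6091 genes with at least 50 UMIs over both libraries, 720 reached a ratio of 1.5 or more in HFD (11.8%) and 1256 were lower by as much (20.6%, 84 of them with 0 UMIs). With the interval condition there were 161 higher (2.64%) and 245 lower (4.02%). In the other C1q-gated cells, 425 of 9534 genes were higher (4.46%) and 548 lower (5.75%), and with the interval condition 358 (3.75%) and 474 (4.97%). Fos, Junb and Jun were short of 1.5-fold between the diets in dual-positive cells and were lower in the other cells of HFD. The HFD over CD ratio of Fos was 0.934 in dual-positive cells (0.852 to 1.02) and 0.322 in other cells. For Junb it was 0.867 (0.774 to 0.968) in dual-positive and 0.355 in other cells, for Jun 1.35 (1.21 to 1.496) and 0.453, and for Dusp1 0.976 (0.870 to 1.09) and 0.417. The dual-positive log2 ratio of Fos was -0.51 in place of -0.10 without cells carrying markers of other cell types, and -0.30 with 2 UMIs asked of each sum. For Junb it was -0.40 and -0.43 in place of -0.21, but 0.015 with 5 UMIs. The intervals of the 4 negative values lay below 0, and all stayed short of 1.5-fold. Over the list, 1 AP-1 gene of 7 was higher and 1 lower in dual-positive cells (median log2 ratio -0.10), and none of 7 was higher and 3 lower in the other cells (median -0.47). Jund, the higher one, was short of 1.5-fold under 6 alternatives, with log2 ratios between 0.43 and 0.57 in place of 0.61.

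Several other response genes were lower in HFD in both kinds of cell. Cxcl2 had an HFD over CD ratio of 0.303 in dual-positive cells (0.255 to 0.356) and 0.0726 in the other cells. On the log2 scale the Cxcl2 ratio in dual-positive cells was -1.72, and it was -1.06 with 5 UMIs asked of each sum, -3.06 at a mitochondrial limit of 5% and -2.67 without the single cell. Near-empty barcodes held 26.5 CPM of Cxcl2 in HFD and 434 CPM in CD, so free Cxcl2 RNA moved in the same direction, and its part in the result was not tested. Ccl4 had a ratio of 0.447 in dual-positive cells (0.325 to 0.600) and 0.224 in the others, and the first was short of 1.5-fold, at a log2 ratio of -0.31 in place of -1.16, with 5 UMIs asked of each sum, and was -2.06 at a mitochondrial limit of 5%. Nfkbia had 0.337 (0.260 to 0.430) and 0.408, Gadd45b, a stress-response gene, 0.257 (0.123 to 0.476) and 0.0808, and Hspa1a 0.452 (0.356 to 0.567) and 0.281. Over the lists in dual-positive cells, 11 of 20 other immediate early factors were lower and 2 higher (median log2 ratio -0.70), where 20.6% of all genes were lower and 11.8% higher. The summed level of that list was 6758 CPM in HFD and 6772 CPM in CD (ratio 0.998, 0.944 to 1.05), and Ier2, an abundant member, was at 1113 CPM in HFD and 747 CPM in CD, short of the 1.5-fold line. Of the kinase and stress feedback genes 7 of 13 were lower and none higher (-0.93), and of the NF-kB genes 10 of 18 were lower and 1 higher (-0.63). Kdm6b, a histone demethylase induced by inflammatory signals, had 1 UMI in dual-positive cells of HFD and 386 UMIs in 205 cells of CD (113 CPM), a ratio of 0.0436 (0.0011 to 0.244). Pim1, a cytokine-induced kinase, was at 24.6 CPM in HFD (5 UMIs) and 193 CPM in CD. G0s2 had 0 UMIs in HFD and 218 in CD. It was at least 4.32-fold lower in HFD by a counting limit that takes UMIs as independent and ignores their spread over cells. Ccrl2, an atypical chemoattractant receptor, had 0 and 225 UMIs, at least 4.46-fold lower by the same limit.

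**Figure D5:**
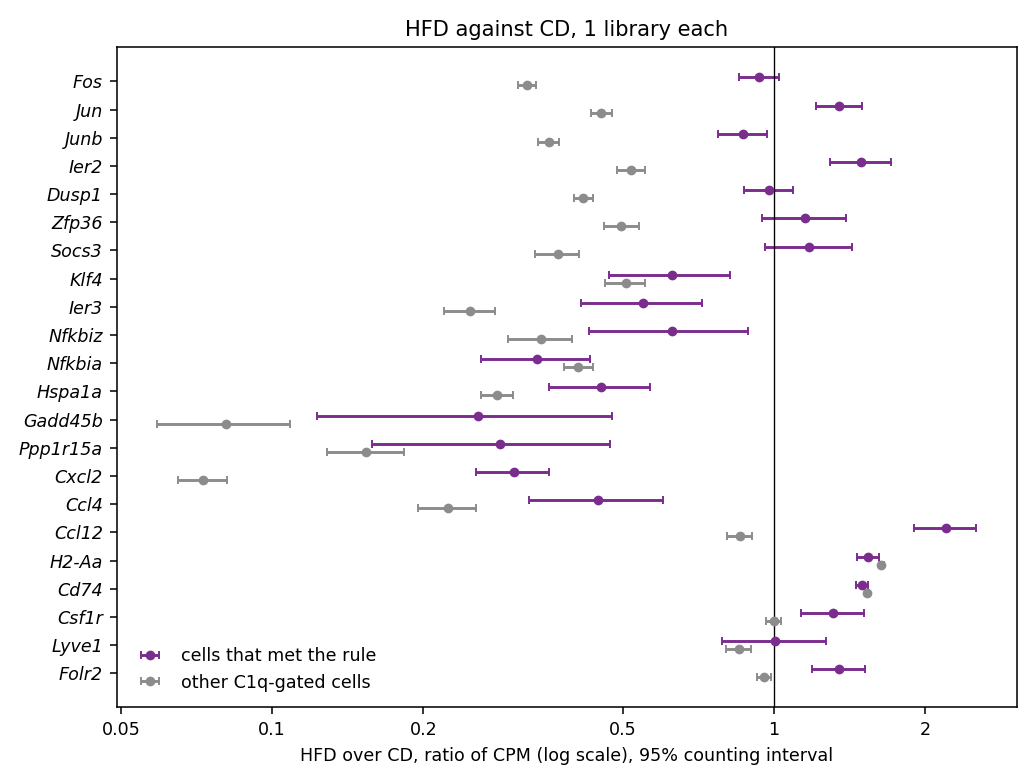
HFD over CD ratio of CPM (horizontal, log scale, with exact 95% counting intervals) for 22 genes in dual-positive cells (purple) and other C1q-gated cells (grey), with a line at 1. Fos, Dusp1, Zfp36 and Socs3 lie near 1 in dual-positive cells and between 0.322 and 0.496 in the others, while Cxcl2, Nfkbia and Gadd45b lie left of the line in both.

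MHC class II genes were higher in HFD in both kinds of cell, with 4 of 9 higher and 1 lower in dual-positive cells (median log2 ratio 0.58) and 6 of 11 higher and none lower in the others (median 0.60). Among all genes, 11.8% were higher and 20.6% lower in dual-positive cells, and 4.46% and 5.75% in the others. H2-Aa was at 8650 CPM in dual-positive cells of HFD and 5621 CPM in those of CD, a ratio of 1.54 (1.46 to 1.62), and the call was lost, at log2 ratios of 0.33 to 0.50 in place of 0.62, without cells carrying markers of other cell types, at a mitochondrial limit of 5% and with cells weighted equally. Ccl12 had an HFD over CD ratio of 2.20 in dual-positive cells (1.90 to 2.53) and 0.854 in the others, and Ccl7, a gating gene, stood at 1.72 and 0.956. Iigp1, an interferon-induced GTPase, was at 118 CPM in HFD (24 UMIs in 5 cells, 13 of them in 1 cell) and 16.4 CPM in CD. Hist1h1c had 48 UMIs in HFD, 41 of them in 1 cell, against 160 UMIs in 110 cells of CD. Sdf2l1 and Xbp1, genes of the endoplasmic reticulum stress response, were spread over more cells. Sdf2l1 was at 424 CPM in HFD (27 of 39 cells) and 204 CPM in CD (274 of 464 cells), a ratio of 2.08 (1.64 to 2.605), and Xbp1 at 256 and 118 CPM (2.16, 1.59 to 2.89). In other C1q-gated cells the ratios were 1.48 and 1.39. P4ha1, a collagen prolyl hydroxylase subunit, had 138 CPM in HFD and 54.8 CPM in CD, Mybbp1a 59.1 and 17.0 CPM, Vcam1, an adhesion molecule, 73.9 and 23.1 CPM, and Gm26532, an RNA whose role is not described here, 158 and 36.3 CPM, and Gm4951, a predicted gene, 78.8 and 27.3 CPM. With 5 UMIs asked of each sum, the HFD over CD log2 ratio was 1.83 in place of 1.14 for Ccl12, 2.82 in place of 2.12 for Gm26532 and 0.27 in place of 2.33 for Hist1h1c. For Ccl12 it was lower under other alternatives, at 0.92 with 2 UMIs asked of each sum and 0.73 without cells carrying markers of other cell types.

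Monocyte and lipid-associated genes were lower in the dual-positive cells of HFD than in those of CD. Of 7 monocyte genes, 6 were lower in HFD and none higher (median log2 ratio -2.06), and of 9 lipid-associated genes 7 were lower and none higher (median -1.10). The shares over all genes were 20.6% lower and 11.8% higher. In the other C1q-gated cells 4 of 8 monocyte genes (median -1.71) and 2 of 9 lipid-associated genes (median -0.51) were also lower in HFD and none was higher. There, 5.75% of all genes were lower and 4.46% higher. Ear2, of eosinophil-associated ribonucleases, had 1 UMI in HFD and 500 UMIs in 77 cells of CD. Spp1, the secreted protein osteopontin, had 1 UMI in HFD and 1344 UMIs in 70 cells of CD, 323 of them in 1 cell. Gpnmb had 0 UMIs in HFD and 233 UMIs in 11 of 464 cells of CD. With so few cells holding it, 0 UMIs in 39 HFD cells set no lower bound on the fold. Within CD, Spp1 was 3.13-fold and Gpnmb 2.49-fold higher in dual-positive than in other cells. Both turned round without cells carrying markers of other cell types, to log2 ratios of -0.96 and -3.99, and against cells matched on UMIs, to -0.19 and -0.48. Fabp5, a fatty acid binding protein, was at 19.7 CPM in HFD (4 UMIs) and 190 CPM in CD, and its HFD over CD log2 ratio was -0.65 in place of -3.27 without cells carrying markers of other cell types. Ccl17, a Ccr4 ligand, had 0 UMIs in HFD and 404 in CD, but these came from 9 cells, 157 of them from 1.

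Markers of other cell types moved with some of these results. Cells with at least 3 UMIs of neutrophil, endothelial or lymphocyte markers numbered 11 of 39 dual-positive cells in HFD and 116 of 464 in CD, against 171 of 1963 and 188 of 1829 other cells. These counts were made at full depth. Dual-positive cells were deeper in both libraries and so reach 3 UMIs more readily, and the count was not repeated at equal depth. Neutrophil markers summed to 369 CPM in dual-positive cells of HFD and 1324 CPM in those of CD, against 187 and 651 CPM in other cells, and the defining marker Ly6g had 0 UMIs in HFD and 1 UMI in CD. In HFD, S100a8 (14 UMIs) and S100a9 (11 UMIs) each came from a single dual-positive cell. In CD, S100a8 was found in 106 and S100a9 in 90 of 464 dual-positive cells, and their HFD over CD ratios were 0.0918 (0.0501 to 0.154) and 0.142 (0.0708 to 0.255). Retnlg, another neutrophil gene, had 1 UMI in HFD and 347 UMIs in 61 cells of CD. Mmp9, on the neutrophil list and also a leading gene of the Cd209 clusters, was instead higher in HFD, at 192 CPM (9 cells) against 48.9 CPM in CD, a log2 ratio of 1.97 that was 1.30 with 5 UMIs asked of each sum. Mmp9 is thus a large part of the 369 CPM above. In HFD cluster 6 (Cd209b, Cd55 and Cd209f) it was at 452 CPM, where the whole neutrophil list summed to 481 CPM. Leaving out cells with markers of other cell types can therefore also leave out cells of the Cd209 clusters, and how many was not counted. Without the cells carrying other markers, 17.5% of C1q-gated cells were dual-positive in CD. Heart muscle transcripts summed to 507 CPM in dual-positive cells of HFD and 205 CPM in those of CD, against 489 and 235 CPM in the others. Of 7 such genes measured in dual-positive cells 5 were higher in HFD, where 11.8% of all genes were, with Tnnt2 at 133 against 32.5 CPM. Red cell genes summed to 4.93 CPM in HFD and 56.6 CPM in CD, against 8.91 and 790 CPM in the other cells. Endothelial markers summed to 133 CPM in HFD and 193 CPM in CD, against 411 and 275 CPM. Mural markers summed to 4.93 CPM in HFD (1 UMI) and 40.7 CPM in CD, against 35.5 and 9.40 CPM, and 43 of the 50 Acta2 UMIs in CD came from 1 cell. Conventional dendritic markers summed to 9.85 CPM in HFD (2 UMIs) and 64.8 CPM in CD, against 73.0 and 38.5 CPM. The part of these transcripts in the differences between HFD and CD was not tested.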

How the data were processed

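Heart macrophage libraries of the HFD and CD groups were used, 1 each, and the WD library was not analysed here. The authors deposited raw UMI counts per gene for every barcode (31053 genes), made with software version 3.0.1 per the file headers. The submitters' processing notes name GRCm38 and Seurat, and per the labels' protocols doublets were gated out in the sort. Python 3.11.15, numpy 2.4.6, scipy 1.17.1, pandas 2.3.3, scanpy 1.11.5, scikit-learn 1.9.0 and matplotlib 3.10.9 were used. UMIs were summed over each set of cells and scaled to CPM, with exact Poisson intervals. Intervals of ratios are exact conditional ones and those of shares Clopper-Pearson, and all cover counting error only. A ratio was called at 1.5-fold with at least 100 UMIs (dual-positive against other cells) or 50 UMIs (HFD against CD). Cells with the highest doublet scores were kept, and removing them (59 in HFD, 57 in CD) was an alternative. Thinning and all random steps used 1 fixed seed. Clustering used 2000 variable genes, 30 components, 15 neighbours and Leiden resolution 1. The text names members of the gene lists, the 12 genes highest and 8 lowest in dual-positive cells of both libraries by the ratio nearer to 1, and the 12 highest and 12 lowest for HFD against CD by the interval bound nearer to 1. Genes given for clusters are their leading genes by fold. Cells and lists were chosen with earlier results of these data known. Scripts were tested on simulated data. Gene positions come from the GENCODE annotation of GRCm38 and promoters from RefSeq (GRCm38.p6).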

Additional observations from a re-analysis of the deposited data

How the results depend on the processing

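The share of dual-positive cells was lower in HFD than in CD under every alternative run, but its size follows the threshold: 3.40% in HFD and 28.7% in CD with 2 UMIs asked of each sum, 0.649% and 12.04% with 5 UMIs, 0.1998% and 2.22% after thinning to 1000 UMIs, and 0.478% and 6.83% after thinning to 2000. In CD it was 22.3% with at least 2000 UMIs per cell and 17.5% without cells carrying markers of other cell types. Counts of called genes moved as follows. In HFD, dual-positive against other cells, there were 684 lower with 2 UMIs a sum, 1126 higher with 5 UMIs, 1664 higher and 2561 lower at a floor of 20 UMIs a gene, 256 and 434 at a floor of 200, and 162 and 117 where the counting interval had to leave out 1. In CD there were 91 lower with 2 UMIs a sum, 237 lower with 5 UMIs, 300 higher and 300 lower against cells matched on UMIs, 597 and 618 at a floor of 20, and 111 and 42 at a floor of 200. For HFD over CD in dual-positive cells there were 1365 higher and 2179 lower at a floor of 20, 80 and 262 at a floor of 200, and 161 and 245 with the interval condition. Of 2019 values of named genes under alternatives, 313 moved beyond the counting interval and 7 reversed. The reversed log2 ratios were -0.50 for Hist1h1c in HFD and 0.012 for Csrnp1 (HFD over CD) with 5 UMIs a sum. Without cells carrying markers of other cell types they were -0.96 for Spp1, -3.99 for Gpnmb and 0.065 for Dcn in CD, and against cells matched on UMIs -0.19 for Spp1 and -0.48 for Gpnmb in CD. Fewer cells or genes enter the stricter rules by construction, and otherwise the cause was not tested. The interval condition, the removal of cells above 20000 UMIs and the removal of the HFD cell with the most Cxcl2 UMIs were chosen after seeing the data. No paired analysis was possible because each diet has 1 library. The 39 HFD cells limit every HFD ratio, since 3 UMIs there stand for 14.8 CPM.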

Other observations

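Some gene groups not described above were also counted, dual-positive against other C1q-gated cells. The shares over all genes were 11.3% higher and 17.9% lower in HFD, and 2.53% higher and 1.88% lower in CD. Of the monocyte genes, 3 of 4 measured were lower and none higher in HFD (Ear2, Ccr2 and Ms4a4c, median log2 ratio -0.91). In CD 3 of 7 were higher and none lower (Fn1, Ear2 and Ly6c2, median 0.03), and Ear2 was no longer called against cells matched on UMIs (0.058 in place of 1.00). Of the proliferation genes, 2 of 7 were higher and 4 lower in HFD, 1 and 1 with the interval condition, and 1 of 10 was higher and 1 lower in CD. Of the interferon response genes, 1 of 7 was higher and 1 lower in HFD, near the shares over all genes, and none of 10 was higher and 1 lower in CD. Of the CXC chemokines, 1 of 2 measured was higher in HFD and 3 of 5 in CD, and none was lower. The HFD one was Cxcl2, described above, and Cxcl3 and Cxcl9 had 0 UMIs in dual-positive cells of HFD, so the family was hardly measured there. Cxcl1, a neutrophil attractant like Cxcl2, had 0 UMIs in dual-positive cells of HFD and was at 39.6 CPM in those of CD, against 9.02 CPM in other CD cells. These are counts in 1 library a diet, and the difference between the libraries was not tested.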
